A study of Mus musculus with 4 samples.

Results

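The genes described here are Flt3 and Kit, 2 receptor tyrosine kinases of blood progenitors, the RUNX transcription factors Runx1, Runx2 and Runx3 with their partner Cbfb, and the factors Gfi1, Mef2c, Lmo2 and Meis1. They were chosen by symbol, and all 10 were found among the 16613 gene symbols of the read count files. RNA-seq had been run on GFP+ bone marrow cells of mice that had been given N-myc-transduced B220+ cells from bone marrow. The labels give strain C57BL/6 and call the disease B-ALL, an acute lymphoblastic leukaemia of the B lineage that N-myc induces. The donor cells of the first group were Anp32b-/- (knockout, 2 libraries), and those of the group it is set against were Anp32b+/+ (wild type, 2 libraries). The introduced N-myc, the transfer into recipients and the GFP+ selection are common to both groups. Not given in the sources used here are the age and sex of the animals, the vector's promoter and the number of animals behind a library. The p-values therefore rest on how far these samples lie from each other, a spread that may be technical.

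FLT3 and KIT bind the ligands FLT3L and stem cell factor on multipotent cells. In normal bone marrow both receptors mark early progenitors, and FLT3 is switched off as cells commit to the B lineage under PAX5. RUNX proteins bind DNA through the runt domain and need CBFB, which does not itself touch DNA, for stable binding. RUNX1 is required for early B cell development. GFI1 is a zinc finger repressor of lymphoid and granulocytic cells and is known to act against PU.1, the factor named in the series title. MEF2C is a MADS-box factor that favours lymphoid over myeloid fate, LMO2 is a LIM-only bridging protein of blood progenitors, and MEIS1 is a homeodomain partner of HOX proteins in stem cells.

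RUNX genes carry matches to their own factor's motif close to the distal start site, so those letters are shown before the values. The longest run of letters common to the most upstream RefSeq promoter windows of Runx1, Runx2 and Runx3 was 18 bases long and held 2 RUNX motif matches. In the following 30-base stretches (GRCm38.p6, 5′ to 3′ on the gene's strand) the capitals mark that run.
Runx1, chr16:92826025-92826054, minus strand: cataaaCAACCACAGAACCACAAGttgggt
Runx2, chr17:44814583-44814612, minus strand: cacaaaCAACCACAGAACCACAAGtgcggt
Runx3, chr4:135120503-135120532, plus strand: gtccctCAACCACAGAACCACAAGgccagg
The run began 27 bases into the Runx1 transcript and 22 bases into that of Runx2, counting the window's start site as base 1. In Runx3 it began 136 bases before the start site. The start site of the Runx2 window, 44814627, is not the gene's outermost base, since its RefSeq span runs to 44814797 on this minus strand. Of 32851 promoter windows in the RefSeq table, each 300 bases long (250 before and 50 after a start site), 4 held the run. The fourth belongs to Gm16225, a long noncoding RNA gene whose window shares 232 bases with that of Runx3.

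The RUNX motif was searched as TGTGGT or TGCGGT on both strands, with overlapping matches counted. A match was present in 22.4% of all windows, 2 or more in 2.86% and 4 or more in 0.0639%. The distal windows of Runx1 and Runx3 held 2 matches each and that of Runx2 held 4, while the proximal windows of Runx1 and Runx3 held 0. The 250 bases before the start sites of the distal windows of Runx2 and Runx3 follow, with RUNX matches in capitals. These are the RUNX genes that edgeR called lower in knockout at an adjusted p under 0.05. Neither was called with DESeq2 (adjusted p = 0.364 for Runx2 and 0.126 for Runx3). Runx1, whose distal window holds the same run, was not called by either method. The part of the Runx2 stretch up to 44814797 lies within the annotated gene.
Runx2, chr17:44814628-44814877, minus strand: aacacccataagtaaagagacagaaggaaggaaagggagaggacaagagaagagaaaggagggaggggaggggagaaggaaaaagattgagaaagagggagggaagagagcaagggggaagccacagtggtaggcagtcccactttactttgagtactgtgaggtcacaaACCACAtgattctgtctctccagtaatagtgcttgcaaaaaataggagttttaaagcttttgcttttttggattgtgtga
Runx3, chr4:135120395-135120644, plus strand: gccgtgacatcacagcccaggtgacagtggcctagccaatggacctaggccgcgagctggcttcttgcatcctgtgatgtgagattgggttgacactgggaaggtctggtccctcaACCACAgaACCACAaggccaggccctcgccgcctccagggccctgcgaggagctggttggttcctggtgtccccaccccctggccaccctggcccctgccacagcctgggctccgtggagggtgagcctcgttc
A letter match describes the sequence and does not show binding. Gene counts do not tell distal from proximal transcripts, so which promoter was in use was not measured. A window was present for 9 of the 10 genes, Lmo2 being the other, and those of Flt3 and Meis1 held 1 RUNX match each while those of Gfi1, Kit, Cbfb and Mef2c held 0.

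The libraries held 19581575 and 19605800 estimated reads for knockout, and 19692505 and 19758671 for wild type. Anp32b was at 74.4 and 70.6 CPM (reads scaled to library size) in knockout and at 774 and 853 CPM in wild type (log2 fold change -3.49, edgeR adjusted p = 2.27e-13). Libraries of a genotype differed from each other by more than counting noise (chi-square per degree of freedom 2.14 for knockout and 5.56 for wild type). All 11 B lineage markers were detected in every library, Cd79a being at 1871 and 1929 CPM in knockout and 1914 and 1872 CPM in wild type. Of these 11 markers 6 fell and 0 rose (Ebf1, Vpreb1, Vpreb2, Igll1, Blnk and Cd24a), with a median log2 fold change of -0.17 and summed levels of 6601 and 6661 CPM in knockout and 7327 and 7259 CPM in wild type. Neutrophil markers fell for 14 of 15 tested genes. Their summed level was 127.2 to 127.3 CPM in knockout and 634 to 646 CPM in wild type. Of all 12123 tested genes, 12.6% were called lower and 10.9% higher. All 4 Y-linked genes fell (41.7 to 42.5 CPM summed in knockout, 156 to 173 CPM in wild type). The sex of donors and recipients is not given, and the share of male cells in each library was not tested. A difference in that share cannot be told apart from genotype in any comparison here. In such bulk samples, fewer cells of a type and less RNA per cell cannot be told apart.

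Of the 10 genes, 9 passed the filter on low counts, and Meis1 did not. Gfi1 rose in knockout, Runx2 and Runx3 fell, and the other 6 tested genes were not called at an adjusted p under 0.05. Over all 12123 tested genes, 10.9% were called higher and 12.6% lower (23.6% in either direction). The libraries of the genotypes did not overlap for Gfi1, which was higher in knockout, and for Flt3, Runx2, Runx3, Cbfb and Mef2c, which were lower. Among all tested genes 60.5% did not overlap, 30% being higher and 30.5% lower in knockout. The median log2 fold change of the 9 genes was -0.20, and it was 0.0021 over all tested genes.

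**Figure D1:**
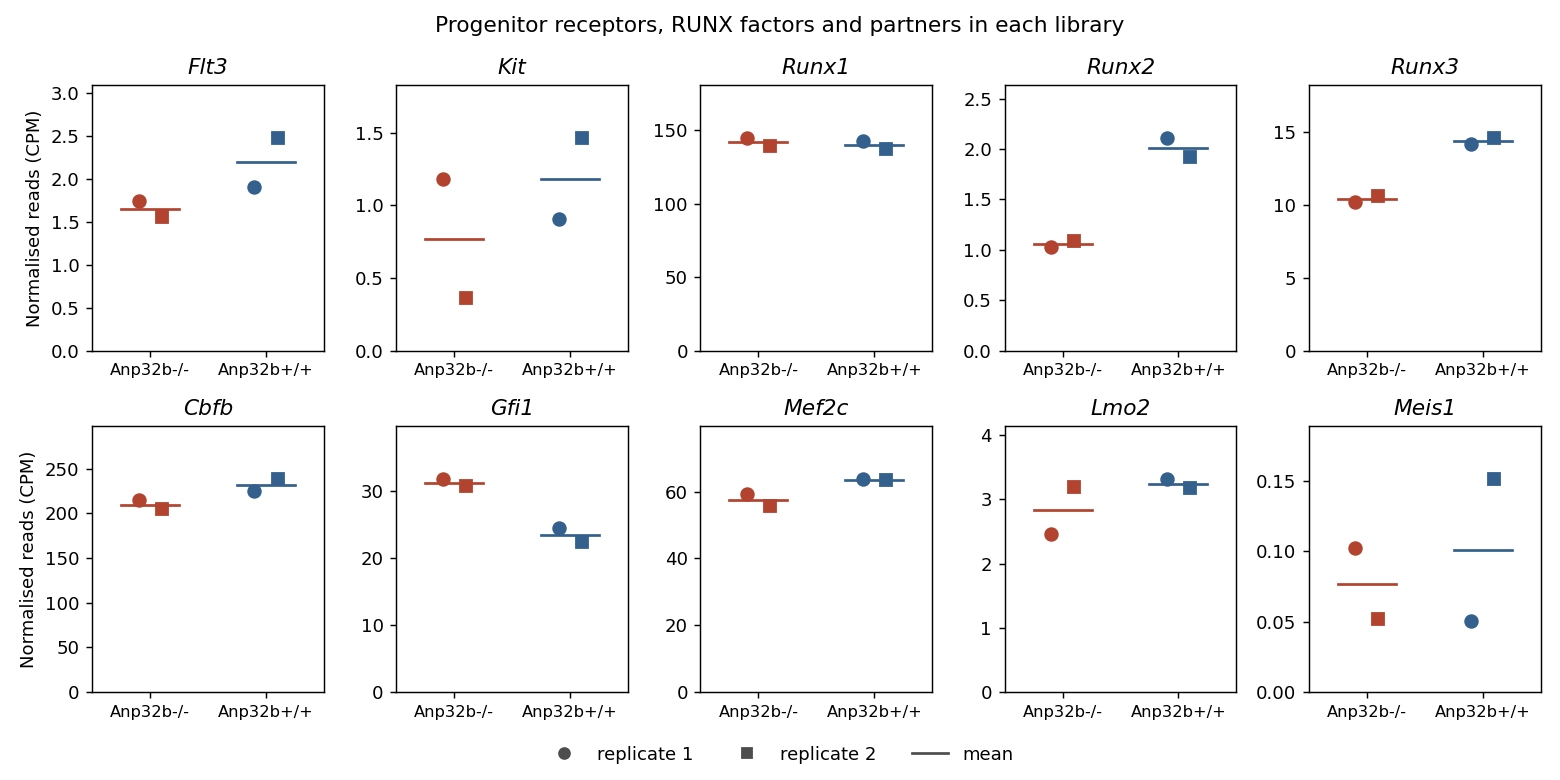
Normalised read counts (CPM, linear axes starting at 0) of the 10 genes in the 2 Anp32b-/- libraries (left) and the 2 Anp32b+/+ libraries (right) of each panel, with the symbol giving the replicate and the line the group mean. Runx2 and Runx3 lie lower and Gfi1 higher in Anp32b-/- libraries, Runx1 is level, and the Anp32b-/- libraries lie apart for Kit at 1.18 and 0.361 CPM.

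Length-adjusted levels placed Cbfb and Runx1 at the top and both receptors near the bottom. Per kb of transcript (median length of a gene's protein-coding GENCODE transcripts), Cbfb was at 74.9 ± 2.66 CPM per kb in knockout and 82.7 ± 3.43 in wild type (SD, n = 2 each, as in the rest of this paragraph). Runx1 was at 71.5 ± 1.83 CPM per kb in knockout and 70.6 ± 1.94 in wild type. Mef2c was at 54.3 ± 2.38 CPM per kb in knockout and 60.0 ± 0.11 in wild type. The order then ran Gfi1, Runx3, Lmo2, Runx2, Flt3, Kit and Meis1. Flt3 averaged 0.450 ± 0.038 CPM per kb in knockout and 0.599 ± 0.109 in wild type, and Kit averaged 0.148 ± 0.111 in knockout and 0.226 ± 0.076 in wild type. Among neighbours in this order the libraries overlapped for Runx2 and Flt3 only. Cbfb and Runx1 were separated narrowly, the lowest Cbfb library being at 73.1 CPM per kb and the highest Runx1 library at 72.8.

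Which transcript is counted moves the middle of that order. The annotated coding transcripts run from 332 to 6277 bases for Mef2c and from 336 to 5861 bases for Runx1. With the longest transcript in place of the median, an alternative chosen after seeing the data, Runx1 was at 24.2 CPM per kb in knockout and 23.9 in wild type. Mef2c then came to 9.17 CPM per kb in knockout and 10.1 in wild type, about level with Gfi1 at 10.9 in knockout and 8.21 in wild type. Runx2 came to 0.163 CPM per kb in knockout and 0.311 in wild type, below Flt3 in both genotypes. Cbfb stayed highest and Meis1 lowest.

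**Figure D2:**
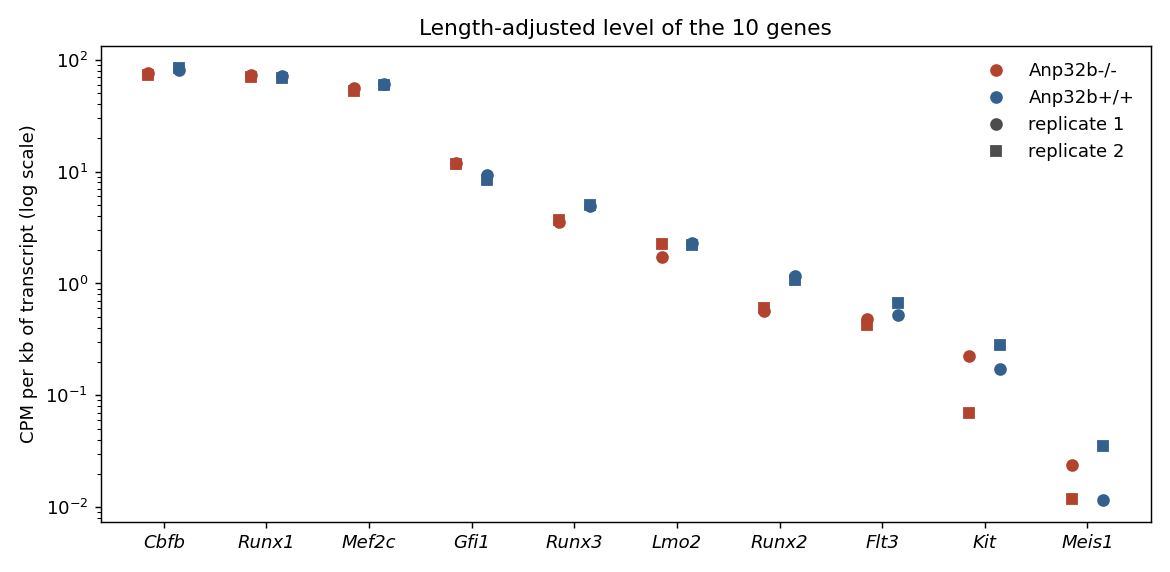
Level per kb of transcript (CPM per kb, log axis) of the 10 genes in each Anp32b-/- library (left of each pair) and Anp32b+/+ library (right), with the symbol giving the replicate. Cbfb, Runx1 and Mef2c lie above 50 CPM per kb in every library, and Flt3, Kit and Meis1 below 1.

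Both receptors were expressed at low levels, and neither differed between the genotypes beyond the spread. Flt3 lies on chromosome 5 from 147330741 to 147400489 (GRCm38, as for all genes here) and Kit on the same chromosome from 75574987 to 75656722. Flt3 had 33.6 and 30.02 estimated reads in knockout (1.75 and 1.55 CPM), against 37.7 and 48.8 in wild type (1.91 and 2.47 CPM). The wild-type libraries were both above the knockout libraries, but the distance between the wild-type libraries was larger than the gap. On the log2 scale the change was -0.41 (SE 0.26) with a 95% interval of -0.97 to 0.15, and the edgeR adjusted p was 0.297.

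Kit had 23 and 7 reads in knockout (1.18 and 0.361 CPM), against 18 and 29 in wild type (0.904 and 1.46 CPM). The groups overlapped, and the low value came from knockout replicate 2 alone. Counting error alone gives exact Poisson 95% intervals of 14.6 to 34.5 reads for knockout replicate 1 and 2.81 to 14.4 reads for knockout replicate 2. For Kit the change was -0.61 on the log2 scale (SE 0.46) with a 95% interval of -1.59 to 0.37, and the edgeR adjusted p was 0.379. Without knockout replicate 2 it was -0.0015 (edgeR adjusted p = 0.999), and without knockout replicate 1 it was -1.69 (edgeR adjusted p = 0.0872).

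Kit is also a defining receptor of mast cells, and the markers of those cells had the same low library. Tpsb2, a mast cell tryptase gene, had 242 and 0 reads in knockout and 251 and 276 in wild type. The chymase gene Cma1 had 19 and 0 reads in knockout and 28 and 27 in wild type, and Cpa3, a mast cell carboxypeptidase gene, had 19 and 0 reads in knockout and 17 and 35 in wild type. A count of 0 allows up to 0.153 CPM in that library. Gata2, a factor of mast cells and early progenitors, had 18 and 2 reads in knockout and 17 and 18 in wild type. In knockout replicate 2, 7 of the 10 mast cell and basophil markers were at 0, against 1, 0 and 3 in knockout replicate 1, wild-type replicate 1 and wild-type replicate 2. The summed level of these markers was 16.5 and 1.08 CPM in knockout and 18.3 and 21.3 CPM in wild type. The part of mast cell RNA in the Kit values was not tested. Of the 5 markers tested between genotypes, 1 was called, the histidine decarboxylase gene Hdc, which fell (log2 fold change -1.54, edgeR adjusted p = 0.00174, 0.0603 without knockout replicate 2). The share called over all tested genes was 23.6% in either direction. Hdc had nearly equal knockout values, at 0.873 and 0.826 CPM, and 2.11 and 2.87 CPM in wild type. Hdc thus did not follow the split of the other markers.

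**Figure D3:**
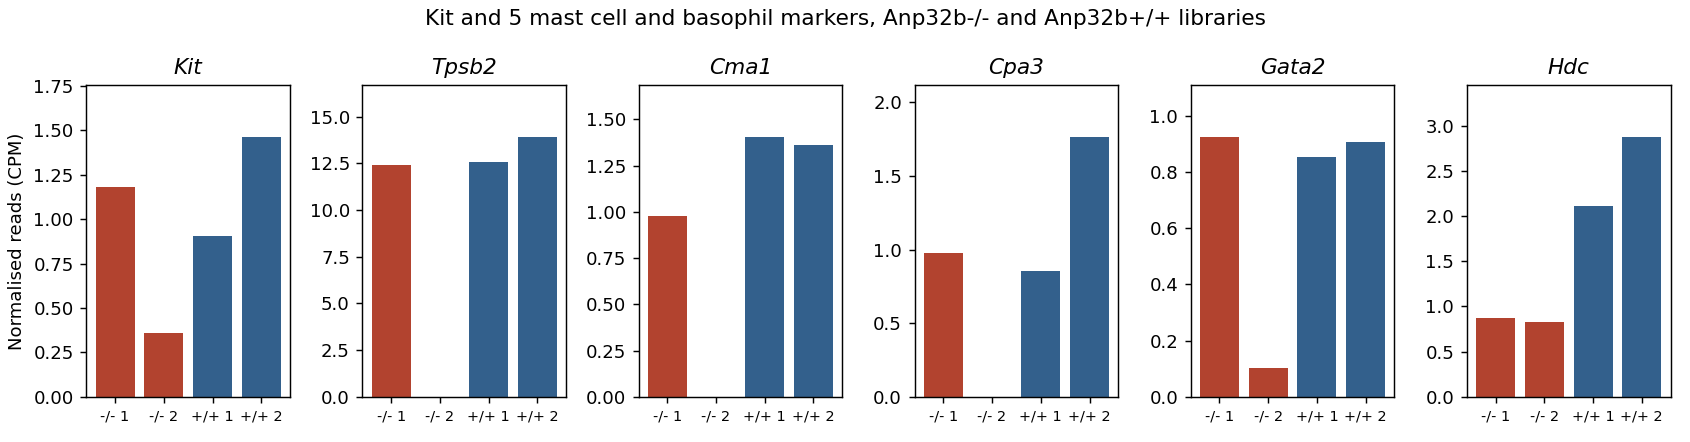
Normalised read counts (CPM, bars from 0) of Kit and 5 mast cell and basophil markers in Anp32b-/- replicates 1 and 2 and Anp32b+/+ replicates 1 and 2. Kit, Tpsb2, Cma1, Cpa3 and Gata2 are all lowest in Anp32b-/- replicate 2, where Tpsb2, Cma1 and Cpa3 had 0 reads, while Hdc is low in both Anp32b-/- libraries.

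Of 17 tested genes of ligands and signalling partners of FLT3 and KIT, 1 rose and 4 fell (median log2 fold change -0.07), beside 23.6% called over all tested genes. Gab2, an adaptor downstream of KIT, was at 8.11 and 6.76 CPM in knockout and 14.2 and 14.5 CPM in wild type (log2 fold change -0.95, SE 0.12, edgeR adjusted p = 3.47e-05). Csf1r, the related receptor of macrophages, fell by 1.00 on the log2 scale (SE 0.21, edgeR adjusted p = 0.00296), and Pik3cd, the catalytic PI3-kinase subunit of leukocytes, fell by 0.24 (SE 0.05, 0.00289). Csf1, the ligand of CSF1R, rose by 0.30 (SE 0.07, edgeR adjusted p = 0.00746). Gab2 was called in every alternative fit, though its 1.93-fold difference is below a fold change of 2. Csf1r (0.0601), Csf1 (0.179) and Pik3cd (0.145) were not called without knockout replicate 2 (edgeR adjusted p), nor was Pik3cd without knockout replicate 1 (0.114). Flt3l, the FLT3 ligand gene, had 3.85 and 3.51 CPM in knockout and 2.51 and 2.92 CPM in wild type, without a call (log2 fold change 0.44, edgeR adjusted p = 0.138). Kitl, the gene of stem cell factor, had 6 and 2 reads in knockout and 4 and 3 in wild type and was not tested. Monocyte and macrophage markers, Csf1r among them, were at 30.5 to 30.7 CPM summed in knockout and 84.1 to 86.8 CPM in wild type (3 of 8 tested fell), and their part in these values was not tested.

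The 3 RUNX genes did not share a pattern. Runx1 was level between the genotypes, while Runx3 and Runx2 fell. Runx1 (chromosome 16, 92601466 to 92826074) was at 144.5 and 139 CPM in knockout and 143 and 137 CPM in wild type. The ranges overlapped, and its log2 fold change of 0.02 (SE 0.05, edgeR adjusted p = 0.836) had a 95% interval of -0.09 to 0.13, so small changes up or down lie within it. Its sign was negative with upper-quartile normalization, without knockout replicate 1 and without wild-type replicate 2.

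Runx3 (chromosome 4, 135120645 to 135177990), which is best known from T and NK cells and is also expressed in B cells, was at 10.2 and 10.6 CPM in knockout, against 14.2 and 14.6 CPM in wild type. Replicates lay close together (highest over lowest library 1.04 in knockout and 1.03 in wild type), and the groups were well apart. Runx3 was 1.38-fold lower, a log2 fold change of -0.47 (SE 0.10) with a 95% interval of -0.68 to -0.25 and an edgeR adjusted p of 0.00388. The call was lost without knockout replicate 2 (edgeR adjusted p = 0.0603) and with DESeq2 (adjusted p = 0.126). Over all alternatives the log2 fold change stayed between -0.496 and -0.437. NK cell markers summed to 2.002 and 2.32 CPM in knockout and 6.43 and 7.46 CPM in wild type, and Klrb1c fell among the 4 tested. T cell markers summed to 16.2 and 17.5 CPM in knockout and 22.8 and 26.0 CPM in wild type, of which Lck made up 13.1 and 13.6 CPM in knockout and 16.1 and 18.9 CPM in wild type. Of the 4 T cell markers tested, Cd4 (log2 fold change -1.61, edgeR adjusted p = 0.000465) and Lck (-0.39, 0.0137) fell. Among all tested genes 12.6% fell. The defining T cell genes were near the floor and not tested. Cd3e had 0 reads in both knockout libraries and 2 and 4 reads in wild type. Cd3d had 3 and 2.88 estimated reads in knockout and 5.03 and 3.95 in wild type, and Cd3g had 0 and 3 against 1 and 7. The part of T and NK cell RNA in the fall of Runx3 was not tested.

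Runx2 (chromosome 17, 44495987 to 44814797), best known as the bone-forming RUNX factor and also expressed by plasmacytoid dendritic cells, had 19.6 and 21 estimated reads in knockout, against 41.8 and 37.9 in wild type. That is 1.03 and 1.08 CPM in knockout and 2.11 and 1.92 CPM in wild type, without overlap. Runx2 was 1.90-fold lower, or -0.93 on the log2 scale (SE 0.28), with a 95% interval of -1.54 to -0.32 and an edgeR adjusted p of 0.0291. At these read numbers the call was fragile. It was lost when any of the 4 libraries was left out (edgeR adjusted p from 0.0505 to 0.163), with DESeq2 (0.364) and with no filter on low counts (0.066), while the log2 fold change stayed between -0.997 and -0.856. The gene Supt3 overlaps Runx2 on the opposite strand and was at 14.99 and 16.1 CPM in knockout and 12.6 and 13.3 CPM in wild type. Without a stated strand setting, reads of the pair cannot be told apart where they overlap. Plasmacytoid dendritic cell markers summed to 65.7 and 71.9 CPM in knockout and 86.7 and 89.6 CPM in wild type. Of these markers, 3 of 6 tested fell, beside 12.6% of all tested genes. Most of the marker sums came from 2 genes, Tcf4 and Bst2. Tcf4 made up 38.1 and 39.3 CPM in knockout and 49.5 and 52.7 CPM in wild type. Bst2 made up 26.2 and 30.1 CPM in knockout and 31.2 and 32.5 CPM in wild type. Siglech, a defining marker of that type, was at 0.719 and 1.03 CPM in knockout and 2.36 and 2.17 CPM in wild type (log2 fold change -1.36, edgeR adjusted p = 0.00412), and the part of these cells in the Runx2 values was not tested.

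Setting each gene against Runx1 within its own library removes the library scaling. Reads of Runx3 came to 7.08% and 7.59% of Runx1 reads in knockout and to 9.93% and 10.6% in wild type. Reads of Runx2 came to 0.695% and 0.778% of those of Runx1 in knockout and to 1.47% and 1.39% in wild type. The genotypes did not overlap on either ratio. Per kb of transcript, Runx1 made up 94.6% and 94.2% of the summed RUNX level in knockout and 92.2% and 91.8% in wild type, and with the longest transcripts it made up 89.8% and 89.2% in knockout and 86.0% and 85.3% in wild type.

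Cbfb (chromosome 8, 105170674 to 105217989), the shared partner, was at 215 and 204 CPM in knockout, against 224 and 238 CPM in wild type. The groups did not overlap, but the gap was smaller than the spread inside either group. Cbfb was not called, with a change of -0.14 on the log2 scale (SE 0.05), a 95% interval of -0.26 to -0.03 and an edgeR adjusted p of 0.0743. It passed the threshold with the replicate number as a block (edgeR adjusted p = 0.0389), without wild-type replicate 1 (0.00438), with upper-quartile normalization (0.0343) and when genes under 10 CPM were left out (0.0418). Per kb of transcript, Cbfb RNA amounted to 0.998 and 0.981 times the summed RUNX RNA in knockout and to 1.03 and 1.13 times in wild type. With the longest transcripts these ratios were 2.71 and 2.65 in knockout and 2.74 and 3.0 in wild type, so the ratio depends on the transcript length taken.

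**Figure D4:**
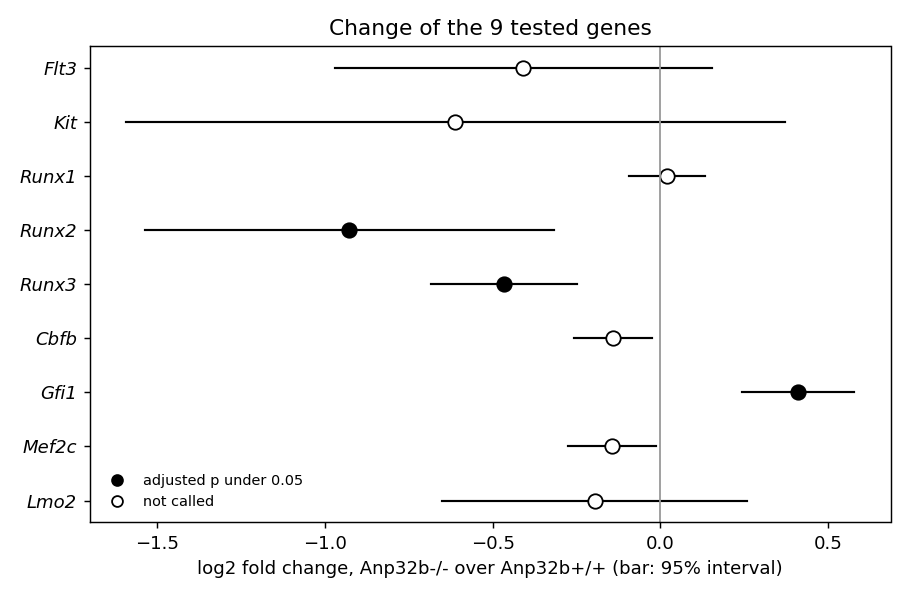
Log2 fold change (Anp32b-/- over Anp32b+/+) of the 9 tested genes with 95% intervals, filled where the edgeR adjusted p was under 0.05. Gfi1 lies to the right at 0.41, Runx3 (-0.47) and Runx2 (-0.93) to the left, and the intervals of Kit and Flt3 are wide and include 0.

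Of 14 tested partners and corepressors of RUNX proteins, 2 rose and 0 fell (median log2 fold change -0.03), where 10.9% of all tested genes rose and 12.6% fell. Ets1, an ETS factor that binds DNA together with RUNX1, was at 321 and 312 CPM in knockout and 278 and 273.5 CPM in wild type (log2 fold change 0.20, SE 0.05, edgeR adjusted p = 0.0105). Prmt1, an arginine methyltransferase that modifies RUNX1, rose by 0.19 (SE 0.06, edgeR adjusted p = 0.0318). Neither was called without knockout replicate 1 or without knockout replicate 2. The edgeR adjusted p was then 0.207 and 0.159 for Ets1 and 0.137 and 0.407 for Prmt1, and Prmt1 was also not called without wild-type replicate 1 (0.0589).

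Among genes long known as RUNX targets in blood cells, 4 of 7 tested fell and 0 rose (median -0.52). Of all tested genes, 12.6% fell and 10.9% rose. Ebf1, a factor that specifies B cells, was at 220 and 215 CPM in knockout and 324 and 299 CPM in wild type (log2 fold change -0.52, SE 0.05, edgeR adjusted p = 7.86e-06). Cd79a (log2 fold change 0.01, edgeR adjusted p = 0.954), Blk (-0.01, 0.912) and Spi1, which encodes PU.1 (0.02, 0.833), were not called. The granule genes Mpo (-1.14, SE 0.11, edgeR adjusted p = 2.80e-06) and Elane (-1.16, SE 0.21, 0.000965) fell, as did Csf1r. All of Mpo, Elane and Csf1r are also markers in the neutrophil or monocyte lists, whose other genes fell in the same libraries.

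Gfi1 was the only one of the 10 genes called higher. It lies on chromosome 5 from 107716655 to 107725805 and was at 31.8 and 30.7 CPM in knockout, against 24.5 and 22.4 CPM in wild type. Both knockout libraries were above both wild-type libraries, by more than the distance within either pair. Gfi1 was 1.33-fold higher, or 0.41 on the log2 scale (SE 0.08), with a 95% interval of 0.24 to 0.58 and an edgeR adjusted p of 0.00143. It was called in each of the 11 alternative fits, with a log2 fold change of 0.345 to 0.478 and an adjusted p of at most 0.0486. Relative to Runx1, Gfi1 reads were 22.0% and 22.0% in knockout and 17.2% and 16.3% in wild type. GFI1 is also a factor of developing neutrophils, and 14 of 15 neutrophil markers fell in these libraries. Ngp, a neutrophil granule gene, was at 40.3 and 42.8 CPM in knockout and 233 and 217 CPM in wild type, and the part of neutrophil RNA in the Gfi1 values was not tested.

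Of the paralog and corepressors of GFI1, 2 of 9 tested genes rose and 0 fell (median 0.04). The shares over all tested genes were 10.9% higher and 12.6% lower. Ehmt2, a histone H3 methyltransferase that GFI1 recruits, was at 325 and 321 CPM in knockout and 286 and 271 CPM in wild type (log2 fold change 0.21, SE 0.05, edgeR adjusted p = 0.00858). Rcor2, a CoREST protein, rose by 0.21 (SE 0.06, edgeR adjusted p = 0.0247). Both calls were lost without knockout replicate 1 (0.157 for Ehmt2, 0.128 for Rcor2) and without knockout replicate 2 (0.174 and 0.289), and that of Rcor2 also without wild-type replicate 2 (0.0915). The paralog Gfi1b, a factor of erythroid cells and megakaryocytes, was near the filter at 0.513 and 0.671 CPM in knockout and 1.15 and 0.605 CPM in wild type (log2 fold change -0.57, edgeR adjusted p = 0.389).

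Mef2c (chromosome 13, 83504017 to 83667079) was at 59.3 and 55.8 CPM in knockout, against 63.7 and 63.5 CPM in wild type. The wild-type libraries were nearly equal and both above the knockout libraries. Its log2 fold change of -0.14 (SE 0.06) had a 95% interval of -0.28 to -0.01 and an edgeR adjusted p of 0.106. It was not called in any of the 11 alternatives (adjusted p from 0.0539 to 0.56). Its paralogs were not called either. Mef2d was at 479 and 468 CPM in knockout and 473 and 410 CPM in wild type (log2 fold change 0.10, edgeR adjusted p = 0.294), and it was called higher without wild-type replicate 1 (0.21, edgeR adjusted p = 0.000778). Mef2a (0.06, edgeR adjusted p = 0.557) and the low Mef2b (-0.01, 0.994) overlapped between the genotypes, and the sign of all 3 paralogs changed in at least 1 leave-out.

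Among MEF2 paralogs and regulators together, 1 of 15 tested genes rose and 4 fell (median -0.02), beside 23.6% called over all tested genes. Sik1, a salt-inducible kinase that phosphorylates class IIa histone deacetylases, was at 138 and 141 CPM in knockout and 89.7 and 84.8 CPM in wild type (log2 fold change 0.68, SE 0.05, edgeR adjusted p = 5.16e-07). Hdac7 and Hdac5, class IIa deacetylase genes whose products repress MEF2 factors, fell by 0.31 (SE 0.06, edgeR adjusted p = 0.00242) and 0.35 (SE 0.09, 0.0156). Sik3, a relative of Sik1, fell by 0.22 (SE 0.07, edgeR adjusted p = 0.0382), and Camk4, a calcium-dependent kinase gene, by 0.56 (0.0393). Sik1 was called in every alternative fit, with a difference below a fold change of 2. The calls of Hdac7 (0.176), Hdac5 (0.252), Sik3 (0.331) and Camk4 (0.345) were lost without knockout replicate 2, and that of Sik3 also without knockout replicate 1 (0.15) and without wild-type replicate 1 (0.142). Camk4 was also not called without knockout replicate 1 (0.0575) or without wild-type replicate 2 (0.202). The list's count of falling genes ranged from 0 to 3 over the leave-outs.

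Lmo2 (chromosome 2, 103957903 to 103981878) was low, with 48 and 62 reads in knockout (2.46 and 3.20 CPM), against 66 and 63 in wild type (3.31 and 3.18 CPM). The groups overlapped through knockout replicate 2. Lmo2 was not called, at -0.20 on the log2 scale (SE 0.21) with a 95% interval of -0.65 to 0.26 and an edgeR adjusted p of 0.560. A partner in the LMO2 complex moved strongly. Tal1, which encodes the basic helix-loop-helix factor that LMO2 bridges to GATA factors, was at 5.85 and 7.54 CPM in knockout and 1.61 and 1.16 CPM in wild type (log2 fold change 2.27, SE 0.22, edgeR adjusted p = 3.98e-06). It was called in each of its 10 alternatives, with a log2 fold change of 2.05 to 2.52.

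Of the 11 tested genes of the LMO2 complex and LMO family, 2 rose and 1 fell (median -0.02). The share called over all tested genes was 23.6%. Ldb1, the protein that holds the complex together, rose by 0.16 (SE 0.06, edgeR adjusted p = 0.0498), a call at the threshold that was lost in 7 of 11 alternatives. Tcf4, an E protein gene, fell by 0.40 (SE 0.07, edgeR adjusted p = 0.000497). Lyl1, the close relative of Tal1, was not called, at 208 and 216 CPM in knockout and 207 and 197 CPM in wild type (log2 fold change 0.07, edgeR adjusted p = 0.375). Lmo4 was not called (-0.03, edgeR adjusted p = 0.816), Gata1, Gata3 and Lmo1 were below the filter, and Gata2 was low in knockout replicate 2 only. Tal1 is also an erythroid and mast cell gene. Of 10 erythroid markers, 0 rose and 1 fell (Car2), with summed levels of 437 and 446 CPM in knockout and 549 and 590 CPM in wild type. Car2 made up 196.6 and 200.03 CPM of this sum in knockout and 334 and 356 CPM in wild type. Without Car2, left out after seeing the data, the sum was higher in knockout, at 240.8 and 246 CPM against 214 and 234 CPM in wild type. Klf1, a defining erythroid factor, was at 1.03 and 0.516 CPM in knockout and 0.803 and 0.353 CPM in wild type. In knockout replicate 2, where Tal1 was highest, 7 of 10 mast cell and basophil markers were at 0, and Hdc was at 0.826 CPM. Of the 3 megakaryocyte markers tested, 0 were called. The part of these cell types in the rise of Tal1 was not tested.

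Meis1 (chromosome 11, 18880428 to 19019651) was at the floor of detection in every library, with 2.03 and 1.01 estimated reads in knockout and 1 and 3.07 in wild type. The rounded sums were 3 reads in knockout (exact Poisson 95% interval 0.619 to 8.77) and 4 in wild type (1.09 to 10.2), so no difference was detectable at this depth and no fold change is given. Of 17 MEIS, PBX and HOX genes, 7 passed the filter, with 0 called higher and 1 called lower (median -0.58). The shares over all tested genes were 10.9% higher and 12.6% lower. Hoxb4, a homeobox gene of stem and progenitor cells, was at 0.513 and 0.568 CPM in knockout and 2.36 and 2.22 CPM in wild type (log2 fold change -2.07, SE 0.32, edgeR adjusted p = 0.000279). It was called in each of its 10 alternatives. Hoxa9, the usual partner of Meis1 in myeloid leukaemia, had at most 0.154 CPM in any library. Meis3 was not called (-0.51, edgeR adjusted p = 0.519), and Meis2 was below the filter.

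Genes of multipotent and lymphoid progenitors other than the 10 moved in both directions: of 12 tested, 2 rose and 5 fell (median -0.17). Of all tested genes, 10.9% rose and 12.6% fell. Ly6d, a surface marker of B-committed lymphoid progenitors, was at 71.9 and 77.6 CPM in knockout and 35.5 and 39.2 CPM in wild type (log2 fold change 1.00, SE 0.07, edgeR adjusted p = 1.13e-07), and it was called in every alternative fit, with a difference just below a fold change of 2. Notch1 was at 59.6 and 54.7 CPM in knockout and 92.7 and 74.5 CPM in wild type (-0.55, SE 0.09, edgeR adjusted p = 0.000341). Myb, a factor of proliferating progenitors, fell by 0.32 (SE 0.06, edgeR adjusted p = 0.000776), and Cd93, a surface protein of early B cells, fell by 0.25 (SE 0.05, 0.00303). Without knockout replicate 2 the calls of Notch1 (0.0789), Myb (0.07) and Cd93 (0.125) were lost, and without knockout replicate 1 those of Myb (0.0519) and Cd93 (0.077). The number of falling genes in the list then ranged from 0 to 5 over the leave-outs. Ikzf1, Il7r and Hhex overlapped between the genotypes, and the stem cell gene Cd34 was low, at 0.257 and 0.361 CPM in knockout and 0.602 and 0.656 CPM in wild type (-1.01, edgeR adjusted p = 0.160).

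**Figure D5:**
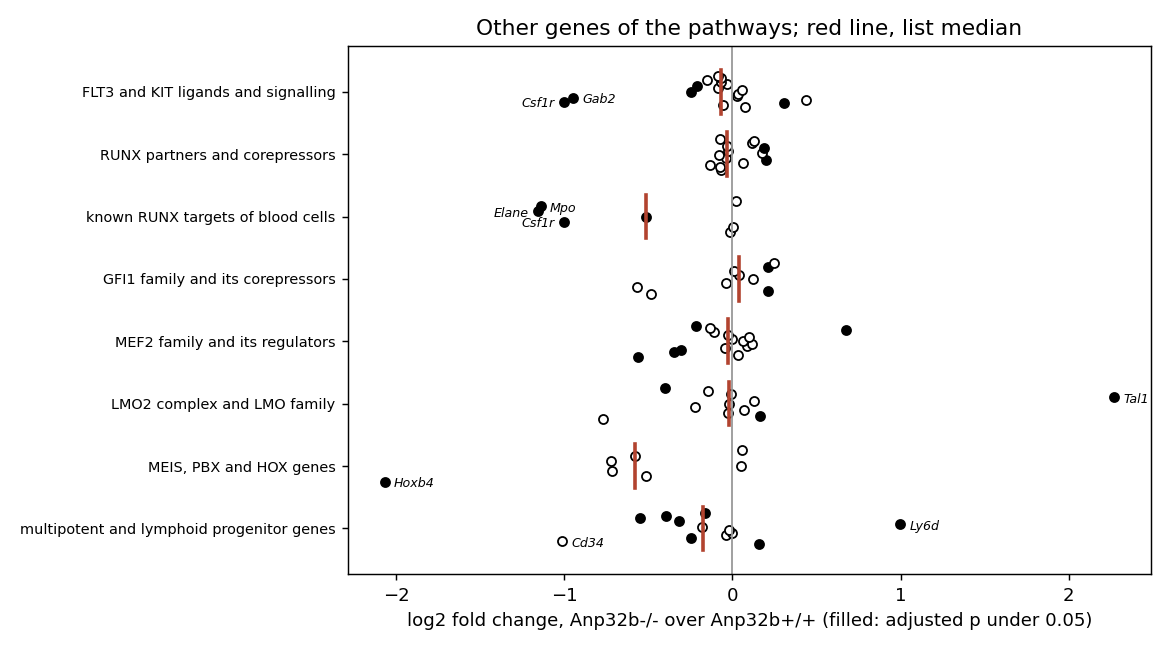
Log2 fold change (Anp32b-/- over Anp32b+/+) of the tested genes in 8 pathway lists, filled where the edgeR adjusted p was under 0.05, with the red line at the list median and names beside changes of at least 0.9. Most genes lie near 0, Tal1 (2.27) and Ly6d (1.00) stand out to the right, and Hoxb4 (-2.07) to the left.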

How the data were processed

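RNA-seq of 4 libraries was analysed, grouped by the genotype in the labels. The deposited files hold estimated read counts (expected counts) per gene symbol, 1 file per library, per the file headers and values. Per the submitters' processing notes, GRCm38 was the build and the tools included DESeq2 1.4.5 and HISAT2 2.0.4. Not given in the sources used here are the tool that counted reads, its annotation, any strand setting and filters. Estimated reads had decimals in some library for 5 of the 10 genes (Flt3, Runx2, Runx3, Mef2c and Meis1), which whole read counts do not have. Gene coordinates come from RefSeq, and overlaps and transcript lengths from GENCODE M21.

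Counts were rounded and tested by the quasi-likelihood method of edgeR 4.0.16, under R 4.3.3, after TMM normalization and filterByExpr (minimum count 10), without covariate, with Benjamini-Hochberg adjustment over 12123 tested genes. 4490 symbols fell below the filter. Standard errors are the size of the log2 fold change divided by the square root of F. An exact permutation test of 2 against 2 cannot go below p = 0.333 and was not run. The procedure was tested on simulated counts. Depth limits, 3 reads for a count of 0, and Poisson intervals cover counting error only. The 10 genes, the lists and the rule for named genes (all 10, set relatives, the up to 4 called genes of smallest p in each pathway list, else the most abundant, and the leading marker of each cell type) were chosen with earlier results of these data known. Lyl1, Hdc, Siglech, Cd34, Blk, Klf1, Klrb1c, Cd3e, Hoxa9, Ikzf1, Il7r, Hhex, Cma1, Cpa3, Gata1, Gata2 and Gata3 were named after their values were seen. So were Cd3d, Cd3g, Cd4 and Bst2. Sequences and start sites are RefSeq's (GRCm38.p6), a patch of the build named for the files.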

Additional observations from a re-analysis of the deposited data

How the results depend on the processing

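Gfi1 was called higher under every alternative fit, but 0 of the 10 genes passed the threshold with a fold change of at least 2 in either direction. The count of 2 lower genes became 0 with DESeq2 1.42.0, 1 with no filter on low counts and 0 to 2 over the leave-outs. Over all genes, 680 were higher and 714 lower with DESeq2, 547 and 744 with no filter, 157 and 473 at a fold change of at least 2, and 1039 and 1767 with upper-quartile normalization. Over the leave-outs, 372 to 1676 were higher and 579 to 1712 lower. The causes of these shifts were not tested, beyond the stricter threshold. Upper-quartile normalization turned Runx1 to -0.0106, Spi1 to -0.00618 and Cd79a to -0.0246, the last also to -0.0134 with a filter of 10 CPM in 2 libraries. With a library left out, log2 fold changes ran from -0.0117 to 0.0482 for Runx1, -0.0436 to 0.0915 for Spi1, -0.00316 to 0.125 for Mef2a, -0.503 to 0.365 for Mef2b, -0.00395 to 0.208 for Mef2d, -0.0806 to 0.0269 for Lmo4, -3.01 to 0.0698 for Gata2 and -0.0161 to 0.0304 for Cd79a. Same-numbered libraries did not deviate together (correlation 0.035 over genes). With 2 libraries per genotype this check cannot tell whether the labels' numbers pair them. With the replicate number as a block, 1644 genes were higher and 1779 lower, and 1 and 3 of the 10, Cbfb being added. With limma-voom (limma 3.58.1) and RLE normalization the calls of the 10 genes were those reported. A lone library in a leave-out is assumed to vary like the other genotype's pair. Kit, Runx2, Flt3, Lmo2 and Meis1 rest on under 70 reads a library, which limits what can be detected.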
